A study of Arabidopsis thaliana with 58 samples.

Results

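Dimethylation of histone H3 at lysine 4 (H3K4me2) was compared between pkl mutant and WT (Col-0) Arabidopsis thaliana seedlings. The data are the peak lists of all H3K4me2 ChIP-seq libraries of these genotypes, 3 from pkl and 3 from WT, of 58 samples in the series. Whole seedlings were used at 9 days of age, after growth in continuous white light, and the replicates are stated to be biological. The labels give neither the pkl allele nor whether seedlings were pooled. H3K4me1 and H3K4me3 peak lists (3 libraries per genotype each) and RNA-seq of pkl (3 libraries) served for comparison.

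PICKLE (PKL) is a CHD3-type chromatin remodeler, an ATPase that moves or assembles nucleosomes, and is best known in Arabidopsis for keeping embryo genes silent in seedlings. Methyltransferases place methyl groups on lysine 4 of histone H3 at genes, and demethylases remove them. In Arabidopsis, H3K4me3 lies near the start of transcribed genes, H3K4me1 lies further inside the gene, and H3K4me2 peaks between them. H3K4me2 in plants has also been linked to low transcript levels, which sets it apart from its use as an activity mark in animals.

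A peak is a stretch of genome called as enriched, so its width says how far the mark was called and not how strong it was. The lists hold no read totals. The depth of the ChIP libraries is therefore unknown, and its part in peak width and number was not tested. In bulk seedlings, a change in the share of cells that carry the mark and a change of the mark within cells cannot be told apart. In the RNA of pkl, the 10 photosynthesis genes summed to 61311 to 66001 FPKM (fragment counts scaled by exon length and library size) per library, with no member at 0. The 12 root genes summed to 179.9 to 197.9 FPKM, also with no member at 0, and the 15 seed and embryo genes to 17.5 to 18.9 FPKM, with LEC1, FUS3, CRU3 and ABI4 at 0 in all 3 libraries. PKL itself had 29.6, 31.9 and 33.9 FPKM in pkl, and since the allele is not given, its RNA level does not check the genotype label.

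H3K4me2 peaks lay further into genes in pkl than in WT, while the first covered base of marked genes lay in overlapping ranges in both genotypes. Peak summits in the first 500 bp of a gene made up 49.6, 47.5 and 46.5% of all summits in pkl replicates 1, 2 and 3, against 53.2, 53.3 and 53.2% in the WT replicates. The WT libraries lay within a fraction of a percentage point of each other, and each pkl library lay below all of them. The mean difference was -5.38 percentage points (exact permutation test, two-sided, p = 0.1, the smallest that 3 against 3 libraries allow). Summits in the gene body, which is the gene without its first and last 500 bp, made up 40.5, 42.6 and 44.1% in pkl, against 36.1, 35.9 and 36.5% in WT. Again the groups did not overlap (difference 6.20 points, exact permutation p = 0.1). In the last 500 bp of genes the share was 5.59, 5.75 and 5.39% in pkl and 6.43, 6.29 and 6.03% in WT, with no overlap in the other direction. The median distance from gene start to summit was 487, 503 and 513 bp in pkl, against 460, 457 and 460 bp in WT. By comparison, the first 500 bp of genes make up 13.2% of the genome and gene bodies 34.6%, so both genotypes held H3K4me2 in the first 500 bp well above its share of sequence.

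**Figure D1:**
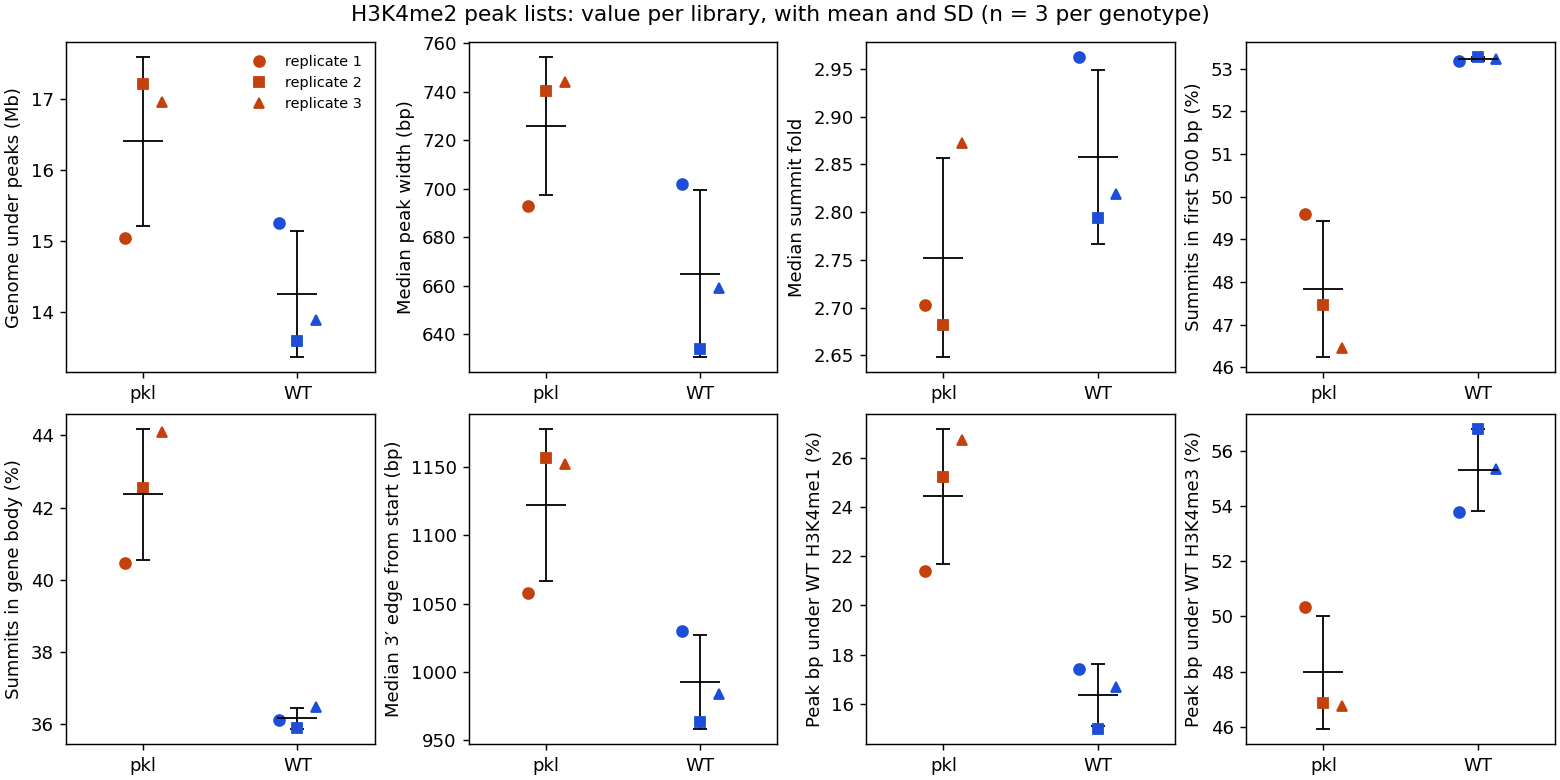
H3K4me2 peak lists by genotype, pkl left and WT right, with 1 point per library, the mean (bar) and the SD (whiskers, n = 3). Axes are cut to the range of the values. Summit shares, the 3′ edge and the overlap with H3K4me1 and H3K4me3 do not overlap between genotypes, whereas genome under peaks, width and summit fold do.

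The amount and width of peaks separated the genotypes less cleanly than their position. There were 20483, 21880 and 21431 peaks in pkl and 20594, 20310 and 19880 in WT. They covered 15.04, 17.22 and 16.96 Mb in pkl, against 15.26, 13.60 and 13.89 Mb in WT. Median width was 693, 740.5 and 744 bp in pkl and 702, 634 and 659 bp in WT, and peaks of 1000 bp or more made up 19.8, 25.8 and 26.3% in pkl and 19.9, 14.1 and 16.3% in WT. In each of these measures pkl replicate 1 lay below WT replicate 1, and the groups overlapped (exact permutation p = 0.2). Those 2 libraries, nearly equal in width, held 40.5% (pkl replicate 1) and 36.1% (WT replicate 1) of their summits in gene bodies. That is 1 library against 1, and the part of peak width in peak position was not tested. The median fold at the summit over local background, as given by the authors, was 2.70, 2.68 and 2.87 in pkl, against 2.96, 2.79 and 2.82 in WT, with overlap (exact permutation p = 0.3). Over the 28 library measures compared, no p-value passed after Benjamini-Hochberg adjustment (lowest adjusted p = 0.233 in exact permutation tests). None could pass 0.05, since the smallest exact permutation p of 3 against 3 libraries is 0.1.

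The extension was on the downstream side. In the 16261 genes marked in all 6 libraries (at least 150 bp under peaks in the gene), the first covered base lay at a median of 75, 60 and 67 bp from the gene start in pkl and 56, 71 and 74 bp in WT, and the groups overlapped (exact permutation p = 1.0). The last covered base lay at 1058, 1157 and 1152 bp in pkl, against 1030, 963 and 984 bp in WT. All pkl libraries were above all WT libraries, by 130 bp on average (exact permutation p = 0.1). A further set was the 4271 genes of 2000 bp or more that held 1 peak in every library. There, separate added peaks have no part, but stretches joined into 1 peak still count as 1. In these genes the last covered base lay at 1019, 1086 and 1099 bp in pkl and 975, 918 and 945 bp in WT.

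Along 12784 protein-coding genes of 2000 bp or more, the genotypes overlapped at the start of the gene and parted after it. At 250 bp from the start, 55.6, 59.9 and 58.3% of genes lay under a peak in pkl, against 60.8, 56.9 and 55.8% in WT. At 1000 bp the share was 39.7, 47.7 and 47.5% in pkl, against 34.0, 28.2 and 30.8% in WT. At 1500 bp it was 11.4, 17.4 and 17.8% in pkl, against 9.87, 7.14 and 7.97% in WT. The pkl libraries were thus above every WT library at 1000 and 1500 bp. At the gene end cover was low in both genotypes, at 1.13, 1.49 and 1.23% of genes in pkl and 1.17, 1.04 and 1.00% in WT.

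**Figure D2:**
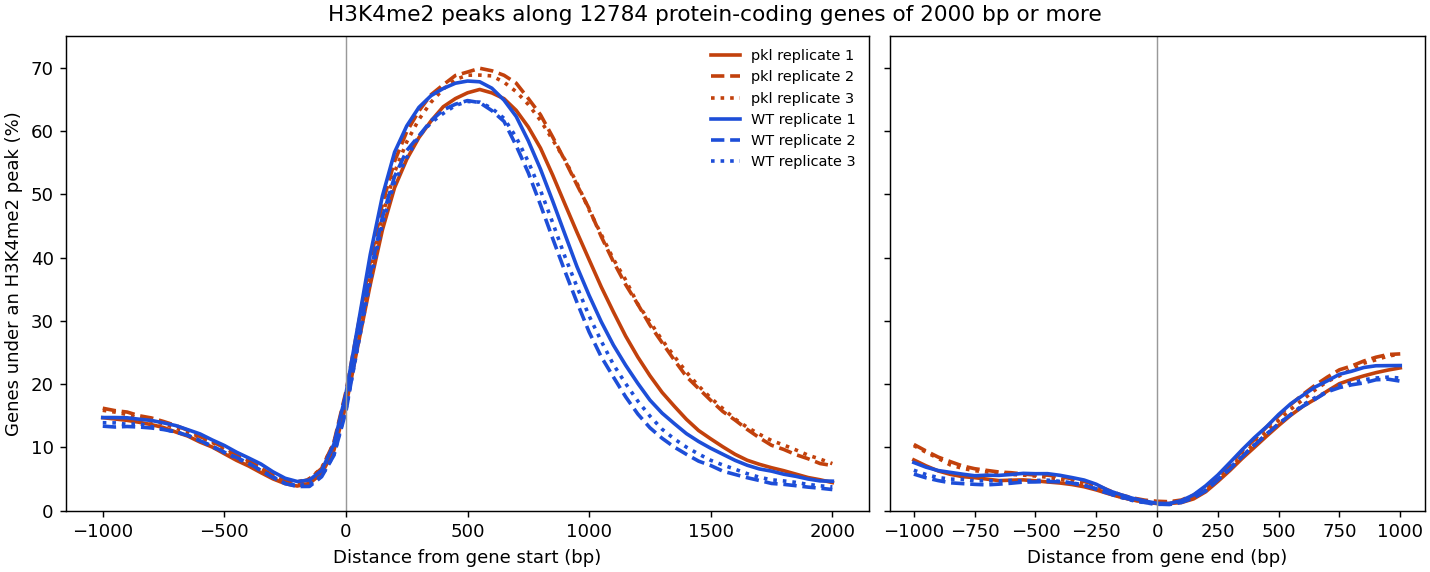
Share of genes under an H3K4me2 peak (y axis, %) against distance from the gene start (left) and the gene end (right) in bp, 1 line per library. The lines rise together at the gene start and separate on the falling side, where at 1000 bp pkl libraries stand at 39.7 to 47.7% and WT libraries at 28.2 to 34.0%.

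By FPKM in pkl, the share of genes covered at 1000 bp was compared in 4 equal classes and in genes at 0. Among genes in the highest of 4 equal classes of FPKM (above 28.0 in the mean of the pkl RNA libraries), 55.2, 65.5 and 65.4% were covered there in pkl and 47.4, 39.7 and 42.7% in WT. Among genes above 0 and up to 4.53 FPKM, the lowest class, the shares were 17.7, 21.6 and 20.3% in pkl and 15.8, 13.2 and 14.1% in WT. In the second lowest class they were 40.9, 49.5 and 50.3% in pkl and 35.5, 28.8 and 32.0% in WT, and in the second highest 52.1, 63.2 and 62.8% in pkl and 43.7, 36.5 and 39.9% in WT. The pkl libraries lay above all WT libraries in each of the 4 classes. In the 587 genes listed at 0 FPKM they were 1.704, 1.874 and 1.874% in pkl and 1.704, 1.704 and 1.533% in WT, which touch. The difference between these classes was not tested.

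Sequence covered in every library of one genotype and in none of the other gave the same picture. Such stretches summed to 432.9 kb for pkl and 118.1 kb for WT, beside 10049.5 kb covered in all 6 libraries. Of the pkl-only sequence, 71.8% lay in gene bodies and 16.98% in the first 500 bp of genes. Of the WT-only sequence, 25.8% lay in gene bodies and 49.9% in the first 500 bp. Among stretches of 150 bp or more, 545 of 904 in pkl (60.3%) adjoined the downstream end of a peak shared with WT, 80 adjoined the upstream end and 202 stood alone. In WT, 28 of 239 adjoined a downstream end, 34 an upstream end, and 157 (65.7%) stood alone. The stretches that pkl had and WT lacked were thus mostly prolonged peaks, and those that WT had and pkl lacked were mostly whole separate peaks. These stretches were chosen by the contrast itself, so the counts describe them and carry no test.

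The prolonged H3K4me2 reached into sequence that carries H3K4me1. Of the bp under H3K4me2 peaks, 21.4, 25.2 and 26.7% in pkl lay where all 3 WT libraries had H3K4me1, against 17.4, 14.99 and 16.7% in WT. The groups did not overlap (difference 8.07 points, exact permutation p = 0.1), and with the H3K4me1 of pkl in place of that of WT the shares were 22.7, 26.3 and 27.9% in pkl and 18.2, 15.8 and 17.4% in WT. For sequence with H3K4me3 in all 3 WT libraries the order was opposite, at 50.3, 46.8 and 46.7% in pkl and 53.8, 56.8 and 55.3% in WT. Of the pkl-only sequence 54.8% carried H3K4me1 and 10.9% H3K4me3 in WT, while of the WT-only sequence 4.22% carried H3K4me1 and 42.7% H3K4me3.

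The share of the other marks in gene bodies was set beside this. Gene bodies held 91.1, 90.9 and 89.7% of H3K4me1 bp in pkl and 90.8, 91.8 and 91.7% in WT. They held 33.1, 33.0 and 32.9% of H3K4me3 bp in pkl and 32.8, 32.1 and 31.9% in WT, against 50.7, 52.8 and 53.9% of H3K4me2 bp in pkl and 47.1, 45.7 and 47.1% in WT. The change of H3K4me2 exceeded that of H3K4me1 by 6.74 points (exact permutation p = 0.015, adjusted over 12 tests 0.09) and that of H3K4me3 by 5.12 points (exact permutation p = 0.1, adjusted 0.24). The H3K4me3 shares also did not overlap between genotypes, nor did the median widths of H3K4me1 peaks, at 1138, 1124 and 1122 bp in pkl and 1082, 1051 and 1053.5 bp in WT. For genome covered, the difference of changes on the log2 scale was 0.14 against either mark (exact permutation p = 0.29 for H3K4me1 and 0.28 for H3K4me3). For median width it was 0.04 against H3K4me1 and 0.09 against H3K4me3 (exact permutation p = 0.655 and 0.325). None of the 12 differences of changes passed the threshold of 0.05 after adjustment, and the position measures were added to this family after their values had been seen.

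At single genes, bp under H3K4me2 peaks were tested in 19091 genes marked in at least 3 of the 6 libraries. All log2 values are of bp plus 100 and are centred on the median of each library, which removes a shift of 0.16 between genotypes. A gene is called longer where pkl has more bp, and shorter where it has fewer, at an adjusted p under 0.05 in limma. There were 181 longer genes (0.948% of those tested) and 121 shorter genes (0.634%), and 2665 genes had an unadjusted p under 0.05. Without centring the numbers were 227 and 112. The 3 pkl values lay above all WT values in 3591 genes (18.8%) and below them in 726 (3.8%). Which genes were called depended on the threshold of the peak lists: when peaks with -log10 q below 10 were left out, 449 genes were longer and 33 shorter, and 14 of the 302 genes called before (1.58% of those tested) were called again. A single gene below therefore stands for the deposited lists as they are. Of the 181 longer genes 135 had no peak bp in WT, and of the 121 shorter genes 97 had none in pkl. Such genes passed the filter of 3 marked libraries through 1 genotype alone, so the difference was fixed by the filter. Their calls are a description, no p-value is given for them, and counts or medians of lists that hold them support nothing by themselves.

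Of the 16261 genes marked in all 6 libraries, 41 were longer (0.252%) and 23 shorter (0.141%). The longer ones had a median length of 4237 bp and 18.3 FPKM, and 80.5% carried H3K4me1 in WT. The shorter ones had a median length of 1952 bp and 2.53 FPKM, and 21.7% carried H3K4me1 in WT. For all genes marked in all 6 libraries, these values were 2289 bp, 12.3 FPKM and 62.7%.

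The 10 longer genes with the largest log2 difference among these included a pair of chromatin remodeler genes. CHR5 (AT2G13370; TAIR10 chromosome 2, 5544181 to 5556464, minus strand), a CHD1-type remodeler, had 1646, 1987 and 2758 bp under peaks in pkl, against 529, 506 and 698 bp in WT. Every pkl library held more than 2 times the WT maximum, and the log2 difference was 1.54 ± 0.20 (SE; limma adjusted p = 0.027). In WT its peak ended 966 to 1164 bp from the gene start, whereas in pkl cover went on in further peaks to 5131, 2690 and 7463 bp. CHR4 (AT5G44800), a CHD3-type relative of PKL, had 713, 1002 and 993 bp in pkl and 437, 266 and 277 bp in WT. The groups did not overlap, and the call lay at the threshold (log2 1.08 ± 0.16 SE, limma adjusted p = 0.0497). Its cover also reached further upstream in pkl, with the first covered base at -344, -298 and -96 bp, against 221, 372 and 352 bp in WT.

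CLPC1 (AT5G50920; chromosome 5, 20715469 to 20720374, minus strand), a chaperone of the chloroplast stroma, had 1768, 1963 and 2050 bp in pkl, against 603, 464 and 675 bp in WT. Both groups were tight and far apart (log2 1.42 ± 0.13 SE, limma adjusted p = 0.0052). Its cover began 532 to 667 bp from the gene start in pkl and 561 to 582 bp in WT, and ended at 2494 to 2673 bp in pkl and 1163 to 1256 bp in WT. GR1 (AT3G24170; chromosome 3, 8729510 to 8734562, minus strand), a glutathione reductase, had 1470, 1584 and 1660 bp in pkl and 589, 611 and 667 bp in WT (log2 1.05 ± 0.10 SE, limma adjusted p = 0.0059). Here too the 5′ ends lay close together, from 261 to 307 bp in pkl and 180 to 298 bp in WT. SEC6 (AT1G71820), a subunit of the exocyst that tethers vesicles, had 1400, 1817 and 2218 bp in pkl and 556, 392 and 556 bp in WT. CESA2 (AT4G39350), a cellulose synthase subunit, had 1596, 1989 and 1223 bp in pkl and 511, 376 and 484 bp in WT. The groups stood apart in both genes (limma adjusted p = 0.015 and 0.032). At CESA2 cover also began earlier in pkl, at 498, 5 and 481 bp, against 864, 859 and 830 bp in WT.

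The remaining 4 longer genes named by the same rule averaged 668 to 1039 bp in pkl and 193 to 362 bp in WT. MSL9 (AT5G19520), a mechanosensitive channel protein, had 661, 1051 and 1065 bp in pkl and 239, 179 and 161 bp in WT, the largest log2 difference of the 10 named (1.63 ± 0.17 SE, limma adjusted p = 0.0094). Unlike CHR5 or CLPC1 it carried neither H3K4me1 nor H3K4me3 in any library of either genotype (0 bp). AOX1C, an alternative oxidase gene, had 764, 1158 and 837 bp in pkl and 366, 269 and 316 bp in WT. NAI2, needed for endoplasmic reticulum bodies, had 994, 1146 and 977 bp in pkl and 331, 452 and 303 bp in WT. GME, an epimerase of ascorbate synthesis, had 724, 537 and 743 bp in pkl and 264, 228 and 227 bp in WT. All 3 passed the test with limma adjusted p between 0.028 and 0.049.

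**Figure D3:**
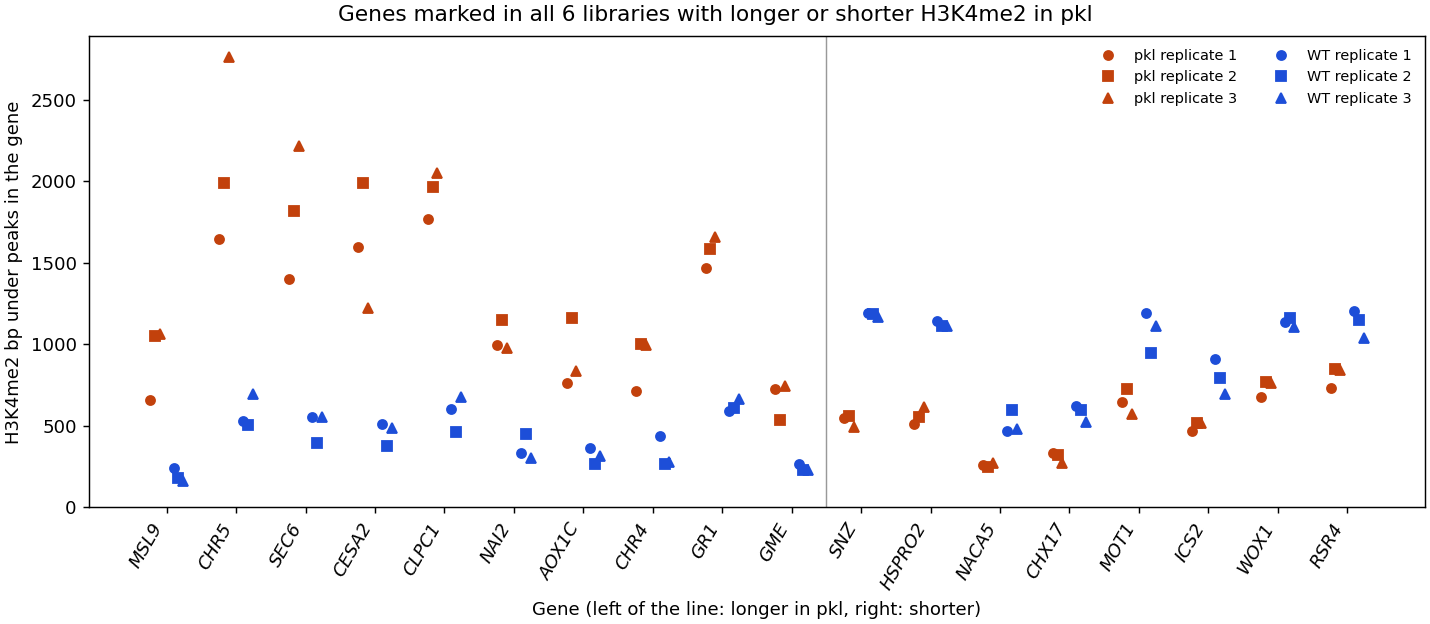
H3K4me2 bp under peaks in the gene (y axis) in each library, for the 10 longer genes (left of the line) and 8 shorter genes (right) named by rule among genes marked in all 6 libraries. Orange points (pkl) and blue points (WT) do not overlap in any of them, since the rule asked for that.

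Among shorter genes that kept the mark, SNZ, WOX1 and ICS2 lacked in pkl a second peak that WT had inside the gene. SNZ (AT2G39250; chromosome 2, 16388886 to 16391073, minus strand), an AP2-family repressor of flowering, had 547, 559 and 494 bp in pkl, against 1190, 1186 and 1168 bp in WT (log2 -1.18 ± 0.10 SE, limma adjusted p = 0.0044). A peak near the gene start ended at 569 to 576 bp in pkl and 518 to 563 bp in WT, and a second peak, from 716 to 741 bp onwards, was present in the 3 WT libraries and absent from the pkl lists. WOX1 (AT3G18010; chromosome 3, 6161137 to 6163272, minus strand), a homeobox gene of leaf blade growth, had 679, 771 and 761 bp in pkl and 1135, 1159 and 1103 bp in WT. It too had a second peak in WT, starting 1687 to 1712 bp into the gene, with none in pkl (log2 -0.72 ± 0.08 SE, limma adjusted p = 0.016). HSPRO2 (AT2G40000; chromosome 2, 16700510 to 16702028, minus strand), related to a nematode resistance gene of beet, had 511, 552 and 617 bp in pkl and 1144, 1115 and 1113 bp in WT. Here 1 peak ended at 597 to 688 bp in pkl and at 1229 to 1255 bp in WT (log2 -1.05 ± 0.08 SE, limma adjusted p = 0.0032).

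The 5 other shorter genes of the rule had log2 differences of -0.94 to -0.60. They were NACA5 (259, 245 and 271 bp in pkl; 468, 600 and 483 bp in WT), of a chaperone complex at the ribosome, and CHX17 (336, 320 and 271 bp in pkl, 619, 599 and 521 bp in WT), a cation exchanger. MOT1, a molybdate transporter, had 644, 725 and 570 bp in pkl and 1194, 947 and 1113 bp in WT. ICS2, an isochorismate synthase, had 470, 516 and 520 bp in pkl and 912, 794 and 697 bp in WT, with its second WT peak starting 1104 to 1146 bp into the gene. RSR4, a vitamin B6 synthesis gene, had 731, 850 and 840 bp in pkl and 1203, 1146 and 1037 bp in WT. With the stricter peak threshold the differences at SNZ and ICS2 took the opposite sign without passing the test.

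**Figure D4:**
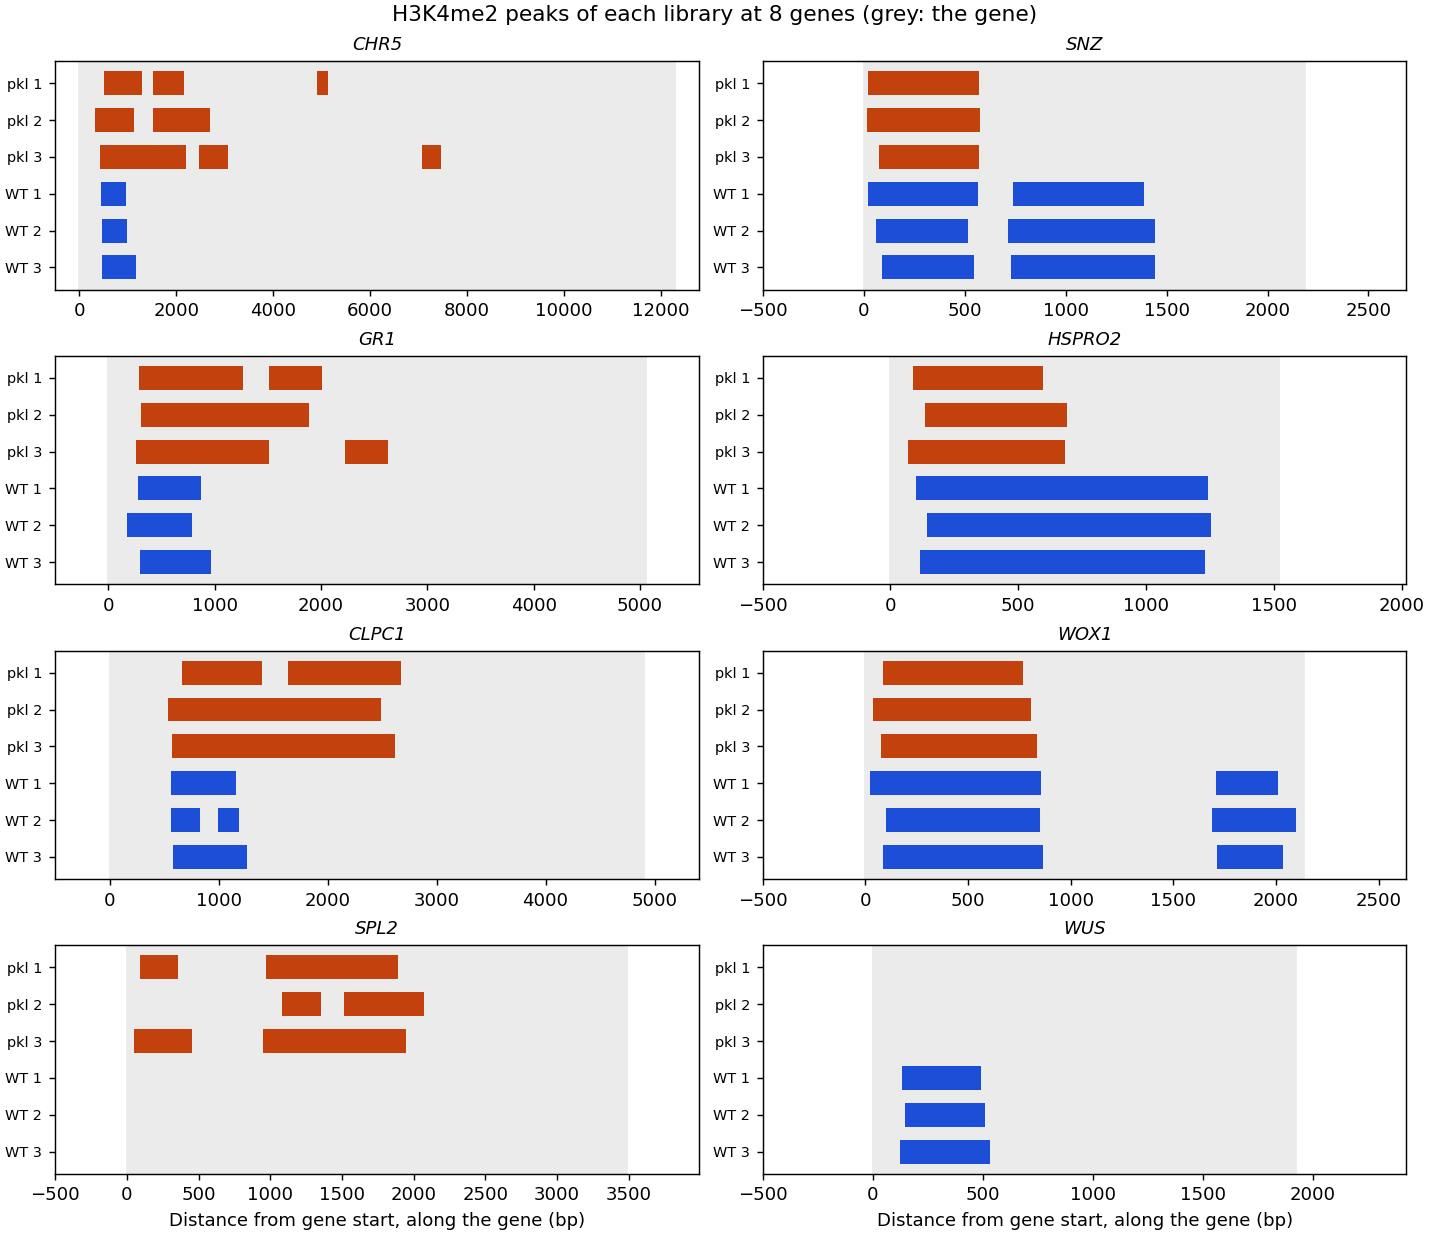
H3K4me2 peaks of each library (bars, pkl in orange above WT in blue) by distance from the gene start in bp, along 8 genes shown in grey with 500 bp on either side. On the left, peaks run further into CHR5, GR1 and CLPC1 in pkl, and SPL2 has peaks in pkl alone. On the right, SNZ and WOX1 lack a second peak in pkl, the peak of HSPRO2 is cut short, and WUS has none.

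Other called genes had peaks in 1 genotype alone. SPL2, a phase-change transcription factor gene, had 1180, 832 and 1407 bp in pkl and 0 bp in each WT library. Its main pkl peak or peaks spanned 973 to 1889, 1081 to 2068 and 946 to 1943 bp from the gene start, well inside the gene. RBL15, a rhomboid-type protease relative, had 792, 824 and 1207 bp in pkl and RR2, a type-B cytokinin response regulator, 430, 1114 and 1050 bp, with 0 bp in WT for both. COR413-PM2, a cold-regulated membrane protein gene, averaged 728 ± 258 bp, BZO2H3, a bZIP factor gene, 727 ± 322 bp and SCL1, of the GRAS family, 715 ± 223 bp in pkl (SD, n = 3), against 0 bp in WT. All 6 carried both H3K4me1 and H3K4me3 in WT. On the other side, PD1, of phenylalanine synthesis, had 0 bp in pkl and 491, 375 and 731 bp in WT. The cytochrome P450 genes CYP87A2 and CYP71B22 averaged 532 ± 138 and 473 ± 163 bp in WT, the acyltransferase gene BAT1 432 ± 157 bp, the cyclophilin gene ROC3 412 ± 109 bp and the efflux carrier gene ALF5 394 ± 146 bp (SD, n = 3), with 0 bp in pkl for each. Of the 97 shorter genes at 0 bp in pkl, 5.15% carried H3K4me1 in WT and the median level was 1.33 FPKM. Of the 135 longer genes at 0 bp in WT, 30.4% carried H3K4me1 and the median level was 3.86 FPKM. Both sets lay below all genes tested, of which 60.04% carried H3K4me1, with a median of 12.4 FPKM.

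Tested gene by gene, the 3′ edge was called more often than the 5′ edge, and which direction prevailed depended on the setting. The edge is the first or last covered base within the gene and 500 bp on either side. The 3′ edge moved downstream in 121 genes (0.744% of 16261) and upstream in 61 (0.375%; limma, adjusted p under 0.05). The 5′ edge moved downstream in 44 genes (0.271%) and upstream in 21 (0.129%). Its groups did not overlap in 1050 genes with pkl further downstream (6.46%) and in 1273 with pkl further upstream (7.83%). Over all genes the median move was 41.7 bp for the 3′ edge (quartiles 0 and 172 bp) and 0 bp for the 5′ edge (quartiles -28.3 and 27.0 bp). The 3′ edges of the genotypes did not overlap in 2858 genes with pkl further downstream (17.6%) and in 465 with pkl further upstream (2.86%). An edge at the limit of the 500 bp flank can belong to a peak of the neighbouring gene. Of the called 3′ edges, 98 of 121 downstream and 29 of 61 upstream were at the limit in no library. In genes with 1 peak in every library the counts were 18 downstream and 1 upstream for the 3′ edge, and 0 each way for the 5′ edge. With the replicate block, the 3′ counts were 28 downstream and 37 upstream. With stricter peaks the 5′ counts were 3 downstream and 10 upstream. Leaving out a pkl library raised the downstream 3′ count to 320 (replicate 1), 184 (replicate 2) and 206 (replicate 3). The unadjusted p was under 0.05 for the 5′ edge in 1495 of the 16261 genes.

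Single edges showed peaks added or missing far from the main one. At ANL2, a homeobox gene of the epidermis, the last covered base lay at 4925, 5075 and 4810 bp in pkl and at 2032, 2267 and 1912 bp in WT. At NSH3, a nucleoside hydrolase gene, it lay at 4878, 4878 and 4733 bp in pkl and at 2128, 2137 and 2132 bp in WT. GMI1, a gene induced by ionizing radiation, had a start peak in both genotypes. A second one near its far end, from 10155 to 10175 bp onwards, was present in WT and missing in pkl, so that the last covered base lay at 504, 686 and 1016 bp in pkl and 10712, 10383 and 10389 bp in WT. Its H3K4me1 covered 9143 bp in pkl and 3886 bp in WT (means of 3 libraries). NEK5, a kinase gene, had its last covered base at 379, 422 and 603 bp in pkl and 2780, 2735 and 2220 bp in WT, which in WT replicates 1 and 2 is past the end of the gene (2288 bp). At the 5′ side, WNK7, another kinase gene, had a peak starting at 159, 189 and 194 bp in pkl, whereas in WT the first covered base lay at 2523, 2560 and 2459 bp. At ICL, isocitrate lyase of the glyoxylate cycle that serves seedlings living on stored oil, the first covered base lay at 257, 265 and 302 bp in pkl and 1319, 1351 and 1317 bp in WT. At OLEO4, of the oleosin family that coats seed oil bodies, it lay at 55, 74 and -42 bp in pkl and 576, 544 and 552 bp in WT. All 7 passed in limma (adjusted p from 6.6e-05 to 0.021). At the other genes named for the 3′ edge (PRR3, SKL1 and ALPHA-SNAP1 downstream; NUP1, NTMC2T6.2 and PRR7 upstream), 1 genotype had its edge at the flank limit in all 3 libraries. The same held for VPS54, NAC2, SKIP6, CKA1 and NMD3 at the 5′ side, but not for APC6 and RLP33.

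The height of peaks changed in few genes. Of 15523 genes tested for the highest summit fold, 1 was higher in pkl (0.00644%) and 4 were lower (0.0258%) in limma, and 1223 had an unadjusted p under 0.05. INP1, a gene of pollen aperture formation, had summit folds of 5.85, 4.56 and 8.99 in pkl, against 3.12, 3.07 and 3.78 in WT. Each pkl library was above each WT library (log2 0.94 ± 0.20 SE, limma adjusted p = 0.039). LOB, a boundary gene of lateral organs, had 2.02, 2.17 and 2.09 in pkl, against 5.15, 4.49 and 3.26 in WT (log2 -0.99 ± 0.19 SE, limma adjusted p = 0.027). Its peak kept its place, spanning 1726 to 2114 bp in pkl replicate 1 and 1685 to 2211 bp in WT replicate 1. TBL15 had 1.53, 1.99 and 2.12 in pkl and 3.64, 2.83 and 4.39 in WT. Without centring no gene was higher and 2 were lower. Without any 1 library other than WT replicate 2, 0 or 1 gene was called each way, and without WT replicate 2 there were 6 higher and 9 lower genes, so these few calls rest on single libraries.

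The difference in cover inside genes was larger in longer genes. Only bp within the gene span are counted. The last covered base lay at a median of 963 to 1030 bp in WT over genes marked in all 6 libraries. In genes under 1000 bp, cover that went further downstream could thus fall outside the count, and its part in this order was not tested. In the 1316 tested genes of 5000 bp or more, mean cover was 968, 1213 and 1269 bp in pkl and 879, 768 and 802 bp in WT, and 23 were longer and 2 shorter. In the 1941 genes under 1000 bp it was 436, 473 and 450 bp in pkl and 475, 436 and 438 bp in WT, with 31 longer and 38 shorter. The pkl libraries were all above the WT libraries in the longest class and overlapped them in the shortest. From the shortest to the longest of 5 classes, the median centred log2 difference was -0.15, -0.11, -0.02, 0.06 and 0.20, against -0.04 over all genes tested. The share of longer calls did not follow this order. It was 1.597% under 1000 bp, 0.696 to 0.949% in the classes between and 1.748% from 5000 bp, beside 0.948% of all genes tested. The share of shorter calls fell with length, from 1.958 to 0.152%, beside 0.634%. Calls fixed by the filter, at 0 bp in 1 genotype, were not set apart by length.

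**Figure D5:**
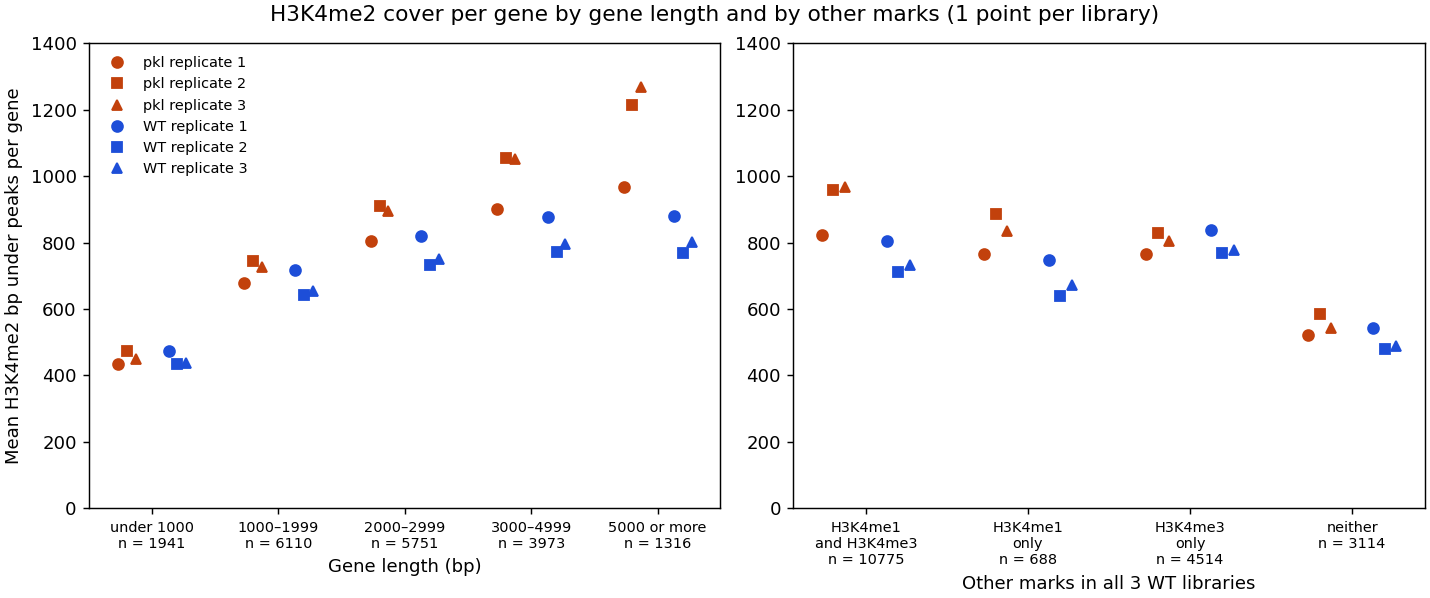
Mean H3K4me2 bp under peaks per gene (y axis) in each library, by gene length (left) and by the other marks a gene carries in all 3 WT libraries (right), pkl left of WT in each class. Bp outside the gene span are not counted, which limits cover in short genes. The gap between genotypes is widest in genes of 5000 bp or more, with 968 to 1269 bp in pkl and 768 to 879 bp in WT, and pkl libraries overlap WT libraries, among other classes, in genes under 1000 bp and in genes with H3K4me3 alone.

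The difference in cover also varied with the marks a gene carries in WT, and gene length was not matched in this comparison. In the 10775 genes with both H3K4me1 and H3K4me3, mean cover was 822, 958 and 966 bp in pkl and 804, 712 and 733 bp in WT. Of these genes 66 were longer (0.613%) and 5 shorter (0.0464%), both below the 0.948 and 0.634% of all genes tested. In the 4514 genes with H3K4me3 alone mean cover was 765, 828 and 804 bp in pkl and 837, 767 and 778 bp in WT. Here 8 genes were longer (0.177%) and 31 shorter (0.687%). The first class did not overlap between genotypes, and the second did. The median log2 difference was 0.04 in the first and -0.15 in the second class. The 688 genes with H3K4me1 alone had 12 longer (1.74%) and 5 shorter members (0.727%). The 3114 genes with neither mark held more than 1 in 2 of all calls, with 95 longer (3.05%) and 80 shorter genes (2.57%). However, 65.2% of the 135 longer genes at 0 bp in WT carried neither mark, as did 73.2% of the 97 shorter genes at 0 bp in pkl. Most of these calls were therefore fixed by the filter, and their number supports nothing by itself. Cover in the genes with neither mark was 521, 586 and 543 bp in pkl and 544, 480 and 488 bp in WT.

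LDL3 was the only call among the tested genes that place or remove H3K4 methylation. Of 12 methyltransferase and COMPASS genes tested, 0 were longer and 0 shorter (limma), with a median log2 difference of -0.01. Among all genes tested 0.948% were longer and 0.634% shorter, so 0 calls in so few genes say little. The groups stood apart in 4 of the 12 with pkl higher and in 0 with pkl lower, beside 18.8 and 3.8% of all genes tested. Among the 4, SDG25 had 482, 467 and 1102 bp in pkl and 142, 0 and 103 bp in WT (log2 1.95, limma adjusted p = 0.16). Among 7 demethylase genes, LDL3 was longer. LDL3 (AT4G16310; chromosome 4, 9218636 to 9225264, plus strand), which removes methyl groups from H3K4me2, had 704, 691 and 929 bp in pkl, against 197, 92 and 108 bp in WT. The lowest pkl value was over 3 times the highest WT value (log2 1.77 ± 0.18 SE, limma adjusted p = 0.0086). A peak over its start was present in all libraries, and 1 or 2 further peaks between 585 and 2916 bp were found in each pkl library. The other 6 were not called, among them LDL1 (934, 983 and 908 bp in pkl; 1208, 945 and 1105 bp in WT) and JMJ18 (1386, 1484 and 1691 bp in pkl; 967, 1159 and 929 bp in WT).

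Among 15 chromatin remodeler genes, CHR4 and CHR5 were longer and none was shorter, beside 0.948% longer and 0.634% shorter among all genes tested. The median log2 difference was 0.25, and 13 of the 15 values were above 0, against 8327 of 19091 over all genes tested. Gene length was not matched in this comparison. The median was 0.20 in all tested genes of 5000 bp or more, and CHR4, CHR5 and PKL span 10034, 12284 and 10180 bp. CHR1 (DDM1), which serves DNA methylation at transposons, had the lowest value, with 785, 965 and 984 bp in pkl and 1680, 1169 and 1354 bp in WT (limma adjusted p = 0.074). PKL itself had 0, 786 and 1496 bp in pkl and 0, 0 and 302 bp in WT, which overlap (limma adjusted p = 0.53). Of 7 PRC2 and LHP1 genes, 0 were called and the median was 0.47, against -0.04 over all genes tested, again without matching for gene length. The SWN methyltransferase gene had 1045, 1721 and 1445 bp in pkl and 1003, 726 and 721 bp in WT, and EMF2 862, 1018 and 1254 bp in pkl and 613, 627 and 661 bp in WT. Both stood apart without passing the test (limma adjusted p = 0.30 and 0.26). Among 6 genes of the Paf1 complex, which travels with RNA polymerase II, ELF8 had 853, 609 and 582 bp in pkl and 0 bp in each WT library, so it was tested through pkl alone.

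The seed and embryo genes, for which PKL is best known, held 1 call. Of 11 tested, PHE1 was listed as longer, through the pkl libraries alone, and none as shorter, beside 0.948 and 0.634% of all genes tested. PHE1, an imprinted MADS-box gene of the endosperm, had 636, 557 and 391 bp in pkl and 0 bp in WT. Its close copy PHE2 (AGL38 in RefSeq, AT1G65300) had 394, 524 and 468 bp in pkl and 0 bp in WT. How the authors' alignment placed reads common to both is not given in the sources used here, so the 2 values are not separate evidence. The groups stood apart in 5 of the 11 with pkl higher and in 1 with pkl lower, beside 18.8 and 3.8% of all genes tested. Higher were PHE1, LEC2, BBM, ABI3 (575, 1144 and 626 bp in pkl; 448, 187 and 297 bp in WT) and ABI4 (791, 739 and 684 bp in pkl; 463, 379 and 453 bp in WT). Lower was LEC1, a regulator of embryo identity, with 500, 493 and 359 bp in pkl and 677, 630 and 518 bp in WT (limma adjusted p = 0.30). Apart from PHE1, none of them passed the test. FUS3, OLEO1, NF-YB6 and CRU3 had 0 bp in all 6 libraries.

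Among floral genes, 3 had H3K4me2 peaks in every WT library and 0 bp in pkl. Of 25, 11 were tested and 13 had 0 bp in all libraries, and these 3 were the shorter calls, beside 0.634% shorter among all genes tested. SHP2, a MADS-box gene of fruit and ovule, had 0 bp in pkl and 354, 399 and 410 bp in WT. WUS, the stem cell gene of the shoot and floral meristem, had 0 bp in pkl and 360, 366 and 407 bp in WT. JAG, a gene of lateral organ growth, had 0 bp in pkl and 415, 365 and 386 bp in WT. Their RNA in pkl was at 0 to 0.385 FPKM. All 3 entered the test through the WT libraries alone, so their calls are a description. The other 8 were not called, among them LFY (1021, 1104 and 984 bp in pkl; 1229, 1070 and 790 bp in WT) and FLC (904, 921 and 617 bp in pkl; 794, 628 and 545 bp in WT). The groups stood apart in 2 of the 11 with pkl higher and in 4 with pkl lower, beside 18.8 and 3.8% of all genes tested. Higher were PI (433, 615 and 551 bp in pkl; 271, 0 and 0 bp in WT) and AGL20 (1177, 1159 and 1236 bp in pkl; 1081, 1122 and 1072 bp in WT). Lower were the 3 called genes and AGL8.

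The rest of the lists held few calls. SPL2 among 13 SPL genes and RR2 among 19 cytokinin signalling genes were the calls of their lists, both through the pkl libraries alone. No gene was called among 12 meristem and leaf polarity genes, 13 gibberellin genes, 13 clock genes, 13 light signalling genes, 4 photosynthesis genes, 4 housekeeping genes or 5 root genes. Among all genes tested 1.58% were called, so 0 calls in lists of this size say little. Their median log2 differences ran from -0.18 in gibberellin genes to 0.24 in housekeeping genes. In the gibberellin list, GA3OX1, a gene of the last step of gibberellin synthesis, had 419, 409 and 441 bp in pkl and 497, 525 and 527 bp in WT (limma adjusted p = 0.22), and the growth repressor gene RGL2 had 1806, 1797 and 1787 bp in pkl and 1796, 1788 and 1830 bp in WT.

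Libraries of a genotype shared somewhat more sequence than libraries of different genotypes. Covered by both of 2 libraries was 70.7 to 72.5% of the sequence covered by either within pkl and 75.2 to 76.2% within WT, against 66.5 to 71.8% between pkl and WT. The ranges within pkl and between genotypes overlapped, since pkl replicate 1 shared 70.9 to 71.8% with each WT library.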

How the data were processed

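H3K4me2 ChIP-seq peak lists of 3 pkl and 3 WT libraries were compared, with H3K4me1 and H3K4me3 lists and RNA-seq of pkl beside them. The submitters' processing notes list MACS2 2.2.5, the aligners Bowtie2 2.3.3 and HISAT2 2.1.0, deepTools, fastp, SAMtools 1.6 and the TAIR10 build, without saying which step each served. The deposited lists hold 1 library each and give for every peak the fold (ratio) over background at the summit, -log10 p, -log10 q (from 1.30) and a score of 10 times -log10 q in whole numbers. These are the authors' values. The deposited RNA tables hold raw counts per gene (17300314 to 17656899 per library) and FPKM by the authors. Another 6 columns of these tables matched no sample and were not used. ChIP depth is unknown.

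Gene spans came from the count table (33331 nuclear genes, 279 organelle genes left out), symbols from RefSeq for TAIR10.1. Gene spans can overlap, and a peak then counts for both genes. Per library, peaks were placed by summit and by bp in the order first 500 bp, last 500 bp, body, 1000 bp upstream, 1000 bp downstream, elsewhere. The test between libraries was an exact permutation of the genotype labels, two-sided, with 20 possible assignments. Bp, summit fold and edges per gene were tested with limma 3.58.1 (R 4.3.3, lmFit and eBayes, Benjamini-Hochberg, threshold 0.05), genes needing 150 bp in at least 3 libraries. Bp were taken as log2 of bp plus 100 and centred. Scripts were tested on simulated data. Where a group is at 0 bp, the fitted value is no bound and is not given.

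The comparison and the 16 gene lists (215 of 219 members matched) were chosen with earlier results of these data known. Named genes were, among genes marked in all 6 libraries, passing and not overlapping, with a symbol, the 10 longer and up to 10 shorter of largest log2 difference (8 passed). Added were 6 each way at 0 bp in 1 genotype by mean bp, 5 each way for fold and edges, all list members passing, and PKL. Genes named without passing were chosen after their values were seen. No genome was used, so no sequences are shown. Replicate numbers were checked for pairing: deviations of same-numbered libraries correlated at -0.06, -0.04 and -0.01 (Pearson, across genes), so libraries were not paired.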

Additional observations from a re-analysis of the deposited data

How the results depend on the processing

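Summits shifted out of the first 500 bp by -6.26 to -4.14 points over all alternatives and into gene bodies by 4.93 to 7.15 points. The 3′ edge was later by 86.2 to 162 bp. These kept their direction under stricter peaks (-log10 q of at least 10), equal numbers of peaks and each library left out. So did peak number (696 to 2588), genome covered (1.72 to 2.84 Mb), width (45.3 to 80.7 bp) and summit fold (-0.315 to -0.0537). For the summit shares and the 3′ edge, whose groups did not overlap, leaving out 1 library could not turn the sign. The replicate block leaves the mean difference as it is, so it could not turn any of these signs. Leaving out 1 library each gave -6.26 to -4.70 points, 5.35 to 7.15 points, 113 to 162 bp, 696 to 1394 peaks, 1.75 to 2.84 Mb, 45.3 to 79.3 bp and -0.166 to -0.0537.

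Counts of genes depended on settings, and the cause was not tested. Longer genes numbered 94 and shorter genes 34 with marking from 300 bp, 449 and 33 with stricter peaks, 101 and 87 with the replicate block, and 145 to 222 and 104 to 193 with 1 library left out (193 without pkl replicate 2). Of the 302 calls, 208 were shared with equal numbers of peaks, 188 with the replicate block, 224 to 239 with 1 library left out and 183 without pkl replicate 1 and WT replicate 1, an alternative chosen after seeing the data. Summit fold had 0 higher and 2 lower genes without centring, 0 and 2 with the mean fold, 0 lower with stricter peaks, and 0 to 6 and 0 to 9 with 1 library left out. The 5′ edge moved downstream and upstream in 0 and 0 genes with 1 peak in every library, 3 and 10 with stricter peaks, 0 and 0 with the replicate block, and 38 to 71 and 23 to 45 with 1 library left out (71 without pkl replicate 3; 37, 38, 39 and 45 without pkl replicates 1, 2, 3 and WT replicate 1). For the 3′ edge these were 18 and 1, 17 and 5, 28 and 37, and 89 to 320 and 71 to 103 (upstream 103 and 92 without pkl replicates 2 and 3).

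With stricter peaks the sign turned for SNZ (1.67) and ICS2 (1.63), for the 5′ edge of RLP33 (-606 bp) and the 3′ edges of GMI1 (292 bp) and PRR7 (126 bp), none passing. It also turned for the share of summits (-0.0453) and bp (-0.0174) downstream of genes and the median 5′ edge (-6.83 bp, and -5.17 to 4.0 bp with 1 library left out, lowest without WT replicate 1). Further signs turned for the 90th percentile of fold (-0.255 to 0.0612 with 1 library left out, positive without WT replicate 1), summits downstream (-0.0108 to 0.0592, negative without WT replicate 3) and elsewhere (-0.0304 to 0.0158, positive without pkl replicate 3 or WT replicate 1), and genes marked (-96.7 with equal numbers of peaks). Against H3K4me1, stricter peaks turned the difference in peak number (log2 -0.0225) and brought 3 past the threshold, width (log2 0.155), body bp (6.62 points) and first 500 bp (-4.29 points). Against H3K4me3, the difference in fold turned to log2 -0.0597 with stricter peaks and ran from -0.0243 to 0.0329 with 1 library left out. Of 768 alternatives over 60 single-gene results, 563 kept direction and call, 200 lost the call and 5 turned. The unknown ChIP depth limits every statement on width and number of peaks.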
